A study of Mus musculus with 4 samples.

Results

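Of the 8251 genes that the arrays measure, 7 genes of the circadian clock and its output were followed in immature thymocytes given a glucocorticoid: Per1, Per2, Cry1, Clock, Nfil3, Dbp and Bhlhe40. They were taken by symbol. Every probe set that the platform annotation assigns to a single gene among these 7 was included, which gave 10 of the 12488 probe sets on the array. RNA was measured on 4 Affymetrix arrays, 2 per group, in CD4+CD8+ double-positive thymocytes from female C3H/HeN mice aged 4 weeks. The medium group was kept for 3 h with 0.1% PBS, and the other group for 3 h with 1e-07 M dexamethasone, a synthetic agonist of the glucocorticoid receptor. Both were sorted with microbeads and cultured at 5000000 cells per ml in 3 ml. The labels name no genetic alteration and call the 2 arrays of a group technical replicate extracts, so the p-values measure only the spread between such extracts. The time of day at which the thymi were taken, which matters for clock genes, is not given in the sources used here.

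The circadian clock is a transcriptional feedback loop present in most cells. CLOCK and its partner ARNTL (BMAL1) bind E-box sequences and switch on the Per and Cry genes, whose proteins then return to the nucleus and repress CLOCK and ARNTL. A further layer acts on D-box sequences, where DBP, TEF and HLF activate and NFIL3 represses, and BHLHE40 competes for E-boxes. Glucocorticoids are a known timing signal for clocks outside the brain, with Per1 among the known direct targets of their receptor. NFIL3, also called E4BP4, has roles in lymphocyte development beyond the clock.

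Signals are MAS5 values on a linear scale. Probe sets for bacterial and yeast transcripts that were not added, judging by their low values, reached at most 14 (19 probe sets, median 1.85), and 14 is used here as the background. Of the 10 probe sets, 4 lay above 14 on every array (1 each for Per1, Cry1, Nfil3 and Dbp) and 4 at or under 14 on every array (Per2, Bhlhe40 and 2 of the 3 for Cry1). The other 2, a further Nfil3 probe set and that for Clock, lay on both sides of it. Differences are of log2(signal + 1), dexamethasone minus medium, a scale that understates the change of dim genes. A gene was represented by its brightest probe set and tested with limma where its mean signal exceeded the 40th percentile of all probe sets, near a signal of 10.1. That left 5 of the 7 genes (Per1, Cry1, Clock, Nfil3 and Dbp) among 5582 tested, and Per2 and Bhlhe40 as values only. A gene is said to have risen or fallen when its p-value, adjusted over all 5582, was under 0.05.

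Nfil3 rose with dexamethasone, and it was the only 1 of the 5 tested members to pass. Over all genes tested 3.91% passed, 1.88% as rises and 2.02% as falls. The groups did not overlap for Nfil3, Cry1 and Dbp, 3 of 5, beside 50.5% of all genes tested, a share near that of genes in general. In bulk RNA a larger share of cells that express a gene and more RNA per cell cannot be told apart.

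**Figure D1:**
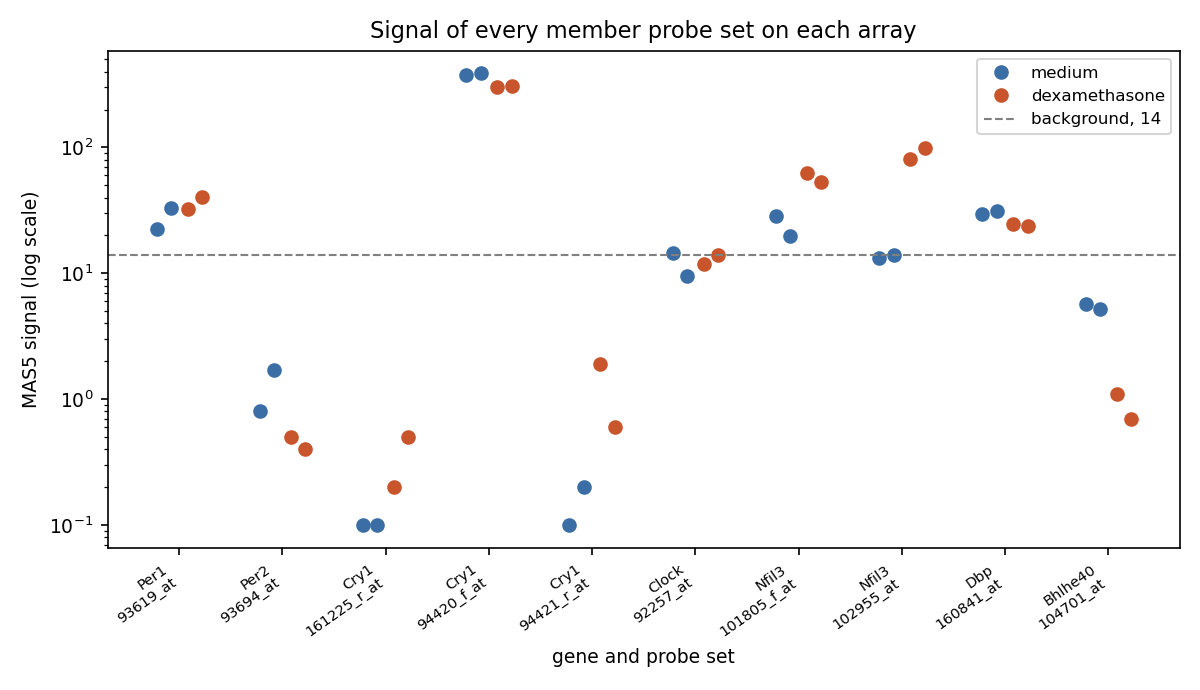
MAS5 signal (log axis) of the 10 probe sets on each of the 4 arrays, blue for medium and orange for dexamethasone, with the background of 14 dashed. Both Nfil3 probe sets are higher on both dexamethasone arrays, the bright Cry1 probe set is lower on both, and Per2, Bhlhe40 and 2 Cry1 probe sets stay under the background.

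Nfil3 encodes the D-box repressor and was read by 2 probe sets. On probe set 101805_f_at, whose suffix marks a design that may match a family of similar sequences, the signal was 28.3 and 19.7 without dexamethasone and 62.6 and 53.1 with it. Both dexamethasone arrays were above both medium arrays, and all 4 were above the background. The log2 difference was 1.25 ± 0.22 (SE), a 2.38-fold rise (limma adjusted p = 0.0329), the 26th highest difference among the 5582 genes.

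On the other Nfil3 probe set, 102955_at, the arrays read 13.3 and 14.1 in medium, against 80.6 and 98.7 with dexamethasone. Here the medium arrays sat at the background, 1 just under and 1 just over 14, and the dexamethasone arrays far above it. The means were 13.7 ± 0.566 in medium and 89.7 ± 12.8 with dexamethasone (SD, n = 2). In a fit of the 6701 probe sets above the same filter, of which 3.51% passed, it passed (limma adjusted p = 0.00151). Its mean log2(signal + 1) with dexamethasone was 6.01-fold over the background of 14, an estimate without an interval and not a minimum. The fitted log2 difference had a 95% interval of 2.19 to 3.05, with the medium arrays at the background. The family probe set passed in that fit too (adjusted p = 0.0348). The call held with any 1 array left out on 102955_at only: leaving out 1 array moved the adjusted p to between 0.0844 and 0.158 on 101805_f_at and to between 0.0213 and 0.0299 on 102955_at. The call on 101805_f_at also ended without the filter (adjusted p = 0.0790) and without the variance trend (0.130).

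The promoter of Nfil3 is shown because it belongs to the member that rose. The sequence is RefSeq's, from the GRCm38.p6 assembly of C57BL/6J and not the C3H/HeN strain used here, and covers the 250 bases before the annotated start, 5′ to 3′ on the gene's strand.

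Nfil3 chr13:52981040-52981289, minus strand: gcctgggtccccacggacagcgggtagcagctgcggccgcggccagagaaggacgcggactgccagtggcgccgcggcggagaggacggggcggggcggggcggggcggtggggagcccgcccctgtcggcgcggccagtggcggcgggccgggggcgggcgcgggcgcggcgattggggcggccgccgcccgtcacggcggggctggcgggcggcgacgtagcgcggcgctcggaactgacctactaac

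The window of 300 bases around the start, which adds 50 bases after it, was searched on both strands for the E-box CACGTG, the D-box TTANGTAA and ACANNNTGT, the core of the glucocorticoid response element. It held 0 matches to each and was 81.7% G and C. Of 32851 such windows in the reference, 7.15% held the E-box, 2.32% the D-box and 6.85% the response element core, so most promoters hold none of these letters either. Windows were given for 5 of the 7 members, and Per1 and Clock had several, 8 windows in all.

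Dbp, the D-box activator that opposes NFIL3, gave 29.6 and 31.3 in medium and 24.7 and 23.8 with dexamethasone on its only probe set. The dexamethasone arrays were both lower than the medium arrays, but the difference did not pass. The log2 difference was -0.32 ± 0.18 (limma adjusted p = 0.394), with a 95% interval of -0.75 to 0.12. Tef, another activator at the D-box, was at 128.0 and 122.0 in medium and 126.5 and 95.3 with dexamethasone, a difference of -0.18 ± 0.15 that did not pass. Hlf had no probe set that names a single gene. The repressor rose and 0 of the 2 measured activators passed in either direction; the difference between them was not tested.

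The core repressors showed no member past the threshold. Cry1 encodes a cryptochrome that blocks CLOCK and ARNTL directly. Its probe set 94420_f_at gave 375.5 and 387.5 in medium and 301.9 and 308.6 with dexamethasone. Both dexamethasone arrays were lower and the values within a group lay close together, at 381.5 ± 8.49 and 305.3 ± 4.74 (SD, n = 2). The log2 difference was -0.32 ± 0.07, 1.25-fold lower, with a 95% interval of -0.49 to -0.16 (limma adjusted p = 0.0601). It passed with a filter at the 60th percentile (adjusted p = 0.0428), where fewer genes share the adjustment. Without the variance trend the limma adjusted p was 0.201. The log2 difference was -0.34 to -0.30 with an array left out, and it did not pass in any of those fits. The other 2 Cry1 probe sets, 161225_r_at and 94421_r_at, read 0.1 to 1.9 over all 4 arrays and give no level for the gene. The r in their names marks relaxed probe selection. The f in 94420_f_at is the family suffix described above for Nfil3, so similar sequences may add to its signal. Whether that signal, and its difference, come from Cry1 alone was not tested.

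Per1, the period gene known as a glucocorticoid target, gave 22.3 and 33.0 in medium and 32.3 and 40.6 with dexamethasone. The lower dexamethasone array fell below the higher medium array, so the groups overlapped. The log2 difference was 0.40 ± 0.24 (limma adjusted p = 0.418), and its 95% interval of -0.18 to 0.99 includes 0. It was 0.13 without the first medium array, 0.68 without the second and 0.24 without the second dexamethasone array, and passed in none of these. Per2, its paralogue, was listed at 0.8 and 1.7 in medium and 0.5 and 0.4 with dexamethasone, under the background throughout, and no fold is given. The other repressors complete the list of 5: Per3 was at 27.9 and 31.1 in medium and 39.1 and 37.4 with dexamethasone (0.37 ± 0.17, adjusted p = 0.291), and Cry2 differed by -0.18 ± 0.20. None of the 4 tested repressors passed, with Per1 and Per3 higher and Cry1 and Cry2 lower at the deposited scaling.

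The E-box, the element through which CLOCK and ARNTL act on these genes, was found in the promoter windows of Cry1 and Per1, once in each. Stretches of 66 bases centred on it are shown, 5′ to 3′ on the gene's strand, from RefSeq and GRCm38.p6, with the E-box in capitals.

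Cry1 chr10:85185079-85185144, minus strand: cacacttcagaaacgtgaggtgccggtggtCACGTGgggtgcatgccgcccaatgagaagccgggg
Per1 chr11:69098753-69098818, plus strand: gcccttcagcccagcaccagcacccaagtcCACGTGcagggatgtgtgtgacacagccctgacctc

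In Cry1 the E-box starts 60 bases before the annotated start and in Per1 166 bases before the start of the upstream of its 2 windows. The windows of Clock and Dbp and the other Per1 window held 0 matches to the E-box, and the 8 windows together held 0 matches to the D-box and to the response element core. A match is a run of letters and no measurement of binding.

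Clock, the DNA-binding activator of the loop, was near the background. Its signals were 14.4 and 9.6 in medium and 11.9 and 14.1 with dexamethasone. The ranges of the groups overlapped, and 2 of the 4 arrays were above 14. The log2 difference was 0.13 ± 0.32, with a 95% interval of -0.64 to 0.89, and its sign turned without the second medium array (-0.14). Its partner Arntl was well above background, at 269.9 and 272.0 in medium and 241.7 and 250.1 with dexamethasone, a difference of -0.14 ± 0.07 that did not pass (adjusted p = 0.348). Npas2, which can replace CLOCK, was under the background on all 4 arrays.

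Bhlhe40, an E-box repressor induced by many stimuli, was listed at 5.7 and 5.2 in medium and 1.1 and 0.7 with dexamethasone. These values separate the groups but are all under the background of 14, so they give no level and no fold. Its relative Bhlhe41 had no single-gene probe set.

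**Figure D2:**
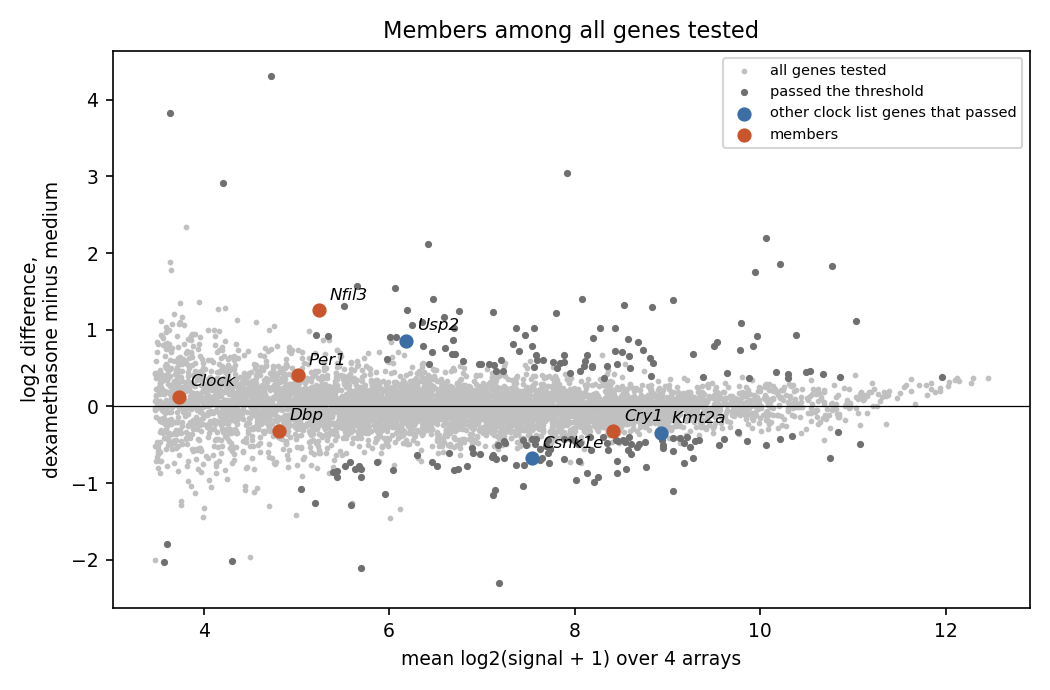
Log2 difference, dexamethasone minus medium, against mean log2(signal + 1) over 4 arrays for the 5582 genes tested (grey; darker where they passed), with the 5 tested members in orange and other clock list genes that passed in blue. Nfil3 lies at 1.25, Cry1 at -0.32 near the lower edge of the grey cloud, and Per1, Dbp and Clock inside it.

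The wider clock was described through 49 genes in 8 lists, the members included. Of these, 35 had a single-gene probe set and 31 passed the filter on dim genes. Among the 31 tested, 2 rose and 2 fell (12.9%, beside the 3.91% of all genes). Without the members, 1 rose and 2 fell of 26 tested (11.5%). Members and lists were chosen with earlier results of these data known, so these shares are no independent test. The median log2 difference over the 31 was -0.08, beside 0.00 over all genes tested. The median absolute difference was 0.19 for the lists and 0.16 for all genes. The groups did not overlap for 15 of the 31, beside 50.5% of all genes tested. Without the variance trend, and with any 1 array left out, 0 of the 31 passed in limma, beside 10 (32.3%) and 7 to 8 (22.6% to 25.8%) at an unadjusted p under 0.05. Over all genes tested the shares at that unadjusted p were 17.5% without the trend and 13.1% to 20.5% with an array left out.

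**Figure D3:**
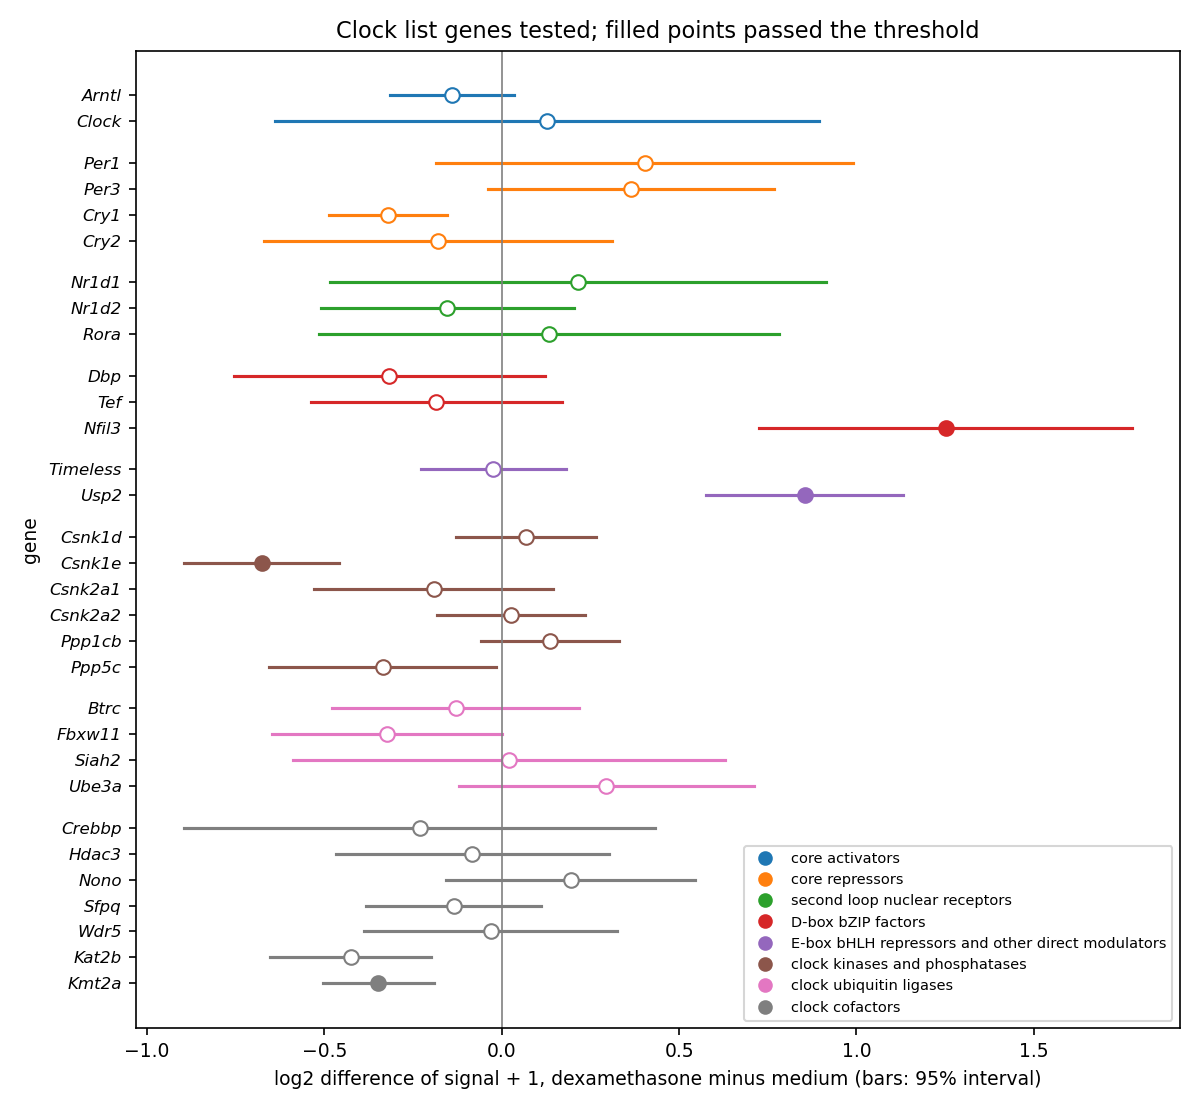
Log2 difference of signal + 1, dexamethasone minus medium, for the 31 tested clock list genes, coloured by role, with 95% intervals as bars and filled points for genes that passed. Nfil3 and Usp2 are the filled points on the right, and Csnk1e and Kmt2a those on the left.

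Usp2, a deubiquitinase with PER1 among its known substrates, was the other rise. It read 51.6 and 54.7 in medium, against 94.6 and 99.2 with dexamethasone, with the groups well apart. The log2 difference was 0.85 ± 0.12, 1.81-fold (limma adjusted p = 0.0166). A dimmer Usp2 probe set, 92821_at, went from 24.8 and 32.4 to 67.9 and 57.5, a difference of 1.11 ± 0.19 (adjusted p = 0.0333 in the fit of probe sets). The call was lost when any array was left out (adjusted p 0.0786 to 0.137).

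Csnk1e, the casein kinase 1 epsilon gene whose product phosphorylates PER proteins and marks them for decay, fell. It read 246.4 and 223.9 in medium, against 141.9 and 151.5 with dexamethasone. Both dexamethasone arrays were far below both medium arrays, and the log2 difference was -0.68 ± 0.09, 1.60-fold lower (limma adjusted p = 0.0162, and 0.0578 to 0.147 with an array left out). Its paralogue Csnk1d, at 813.2 and 711.6 in medium and 810.2 and 785.2 with dexamethasone, differed by 0.07 ± 0.08 and did not pass. Its dimmer probe sets differed by 0.30 (162001_f_at), 0.02 (97262_at) and -0.33 (97264_r_at, groups not overlapping). None of them passed in the fit of probe sets. Of 6 tested kinases and phosphatases, Csnk1e was the 1 that passed.

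Kmt2a, a histone methyltransferase that works with CLOCK at its targets, fell from 561.1 and 538.1 to 432.3 and 430.9 on its brighter probe set. The difference was -0.35 ± 0.07 (limma adjusted p = 0.0432, and 0.114 to 0.257 with an array left out). The call also ended without the filter (adjusted p = 0.0692), without the variance trend (0.182) and with the mean of its probe sets (-0.21, 0.207). Its dimmer probe set 104568_at read 90.8 to 106.7 over the 4 arrays, with overlapping groups and a difference of -0.08. Kmt2a was the 1 call among 7 tested cofactors. Another of them, Kat2b, differed by -0.43 ± 0.09 on its brighter probe set without passing (limma adjusted p = 0.0633). Its groups did not overlap there, and it passed with the 60th percentile filter and with the replicate block. On its dimmer probe set, 161116_at, Kat2b differed by -0.07 and the groups overlapped.

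The lists without a call were the core activators, the core repressors, the nuclear receptors of the second loop and the ubiquitin ligases. Among the nuclear receptors, which set Arntl transcription, Nr1d1 had the largest difference, 0.21 ± 0.29, from 28.2 and 17.3 in medium to 22.5 and 29.6 with dexamethasone. Of the ubiquitin ligases that degrade PER and CRY proteins, Fbxw11 had the largest, -0.32 ± 0.13 (adjusted p = 0.252). Neither passed.

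Likeness to Nfil3 over the 4 arrays was taken as the distance between log2 signals centred on each gene's mean. Nfil3 was represented by 101805_f_at, and likeness to 102955_at, which had the larger difference, was not computed. The nearest tested genes were Six2, Pald1 and Ackr4, at distances of 0.14, 0.17 and 0.21. Six2 gave 13.0 and 9.3 in medium and 28.7 and 27.8 with dexamethasone. All 3 were under the background on both medium arrays, so their differences have no exact size and these distances rest in part on values that give no level. Pald1 and Ackr4 exceeded the filter on dim genes only through the dexamethasone arrays. None of the 3 passed the test.

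Of the known receptor targets Fkbp5 and Tsc22d3, only Fkbp5 was above the background in these cells. Fkbp5, a co-chaperone of the receptor, went from 660.0 and 589.9 to 2381.8 and 2152.1, a rise of 1.86 on the log2 scale. Nr3c1, the receptor gene, rose from 25.1 and 26.5 to 53.7 and 46.4. Tsc22d3 was under the background on all arrays, at 2.6 to 4.5.

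Some properties of the arrays moved with the groups. Actin control probes at the 3′ end over those at the 5′ end, which reflect RNA integrity, gave a ratio of 1.06 to 1.15 in medium and 1.24 to 1.40 with dexamethasone, while the same ratio for Gapdh overlapped between groups, at 0.838 to 0.845 and 0.823 to 0.904. The 9 hybridization controls were 1.37-fold higher with dexamethasone. Scaling to those controls moved the median difference of all genes from 0.00 to -0.45, with 44.2% of genes then falling, Cry1 (-0.78) and Dbp (-0.76) among them. With that scaling Nfil3 rose on both probe sets (0.81 on 101805_f_at), while Per1 (-0.040) and Clock (-0.29) turned sign without passing, and of the lists' other calls Usp2 was lost (0.40, adjusted p = 0.0926). The 8 markers of double-positive cells, Cd4, Cd8a and Rag1 among them, summed to 12811 to 13273 in medium and 12544 to 13533 with dexamethasone (Cd8b1 fell). The 5 of 6 measured for mature single-positive cells summed to 322.3 to 355.4 in medium and 364.8 to 382.2 with dexamethasone (Il7r rose, S1pr1 at background). Without Il7r the other 4 were lower with dexamethasone, at 225.5 to 235.4 against 272.9 to 297.4. The 5 of 6 for B cells summed to 156.8 to 157.4 and 168.5 to 182.9. The 6 of 6 for double-negative cells summed to 356.2 to 361.9 and 223.8 to 239.1 (Ptcra and Gfi1 fell, with Il2ra, Kit and Cd44 at background), and the 6 of 6 for thymic epithelium to 210.4 to 218.2 and 107.9 to 108.8 (Cldn4 fell, with Epcam, Krt5, Krt8, Krt14 and Foxn1 at background). Those of macrophages and dendritic cells (7 of 7, 98.4 to 109.4 and 82.7 to 101.0) and of erythroid cells (3 of 5, 105.8 to 113.1 and 112.1 to 121.6) overlapped between groups, with Lyz2, Itgam, Adgre1, Alas2 and Gata1 at background. The part of RNA integrity or of other cells in the differences of Nfil3, Usp2, Csnk1e and Kmt2a was not tested.

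**Figure D4:**
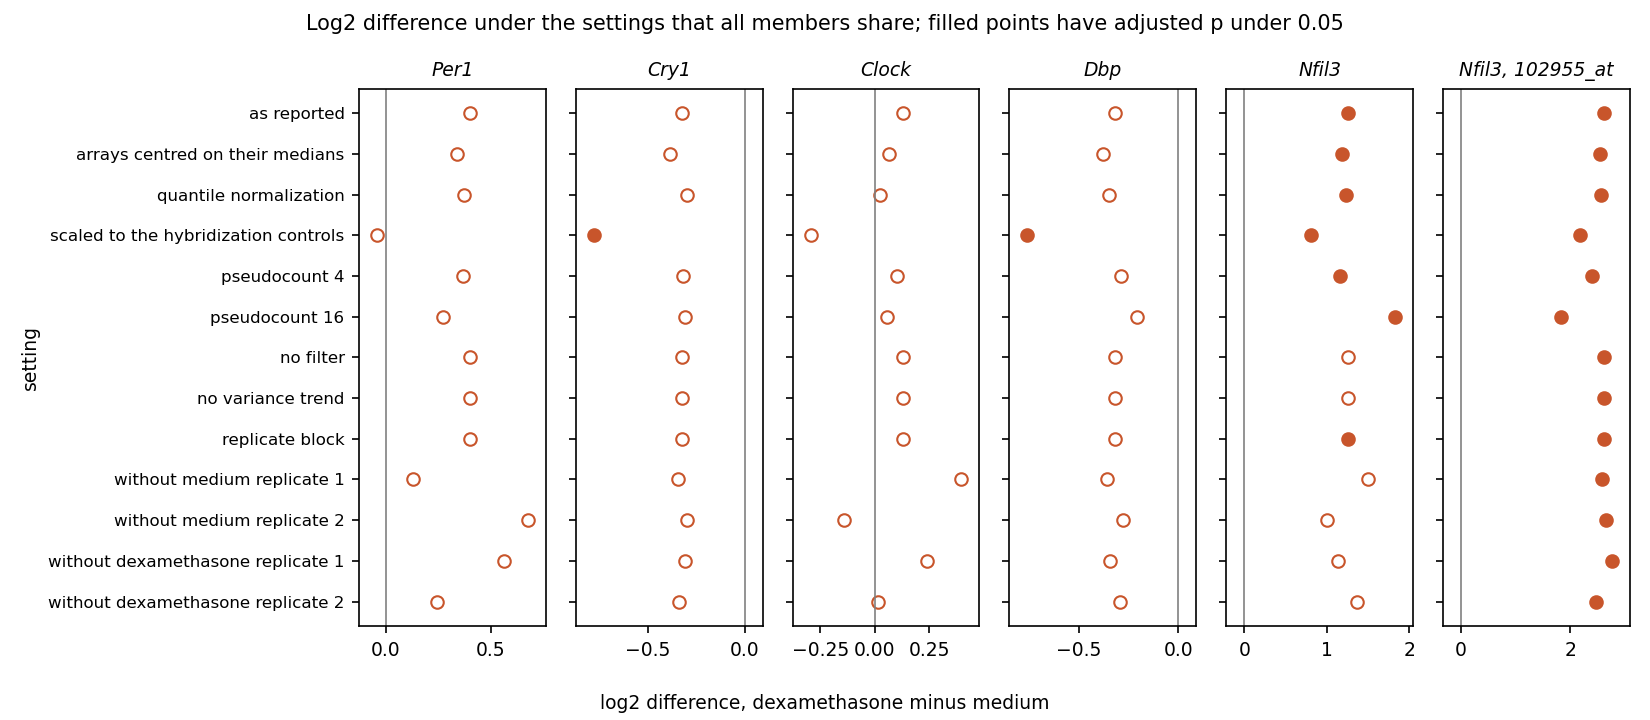
Log2 difference, dexamethasone minus medium, of the 5 tested members and of the other Nfil3 probe set under the settings that all share, filled where the adjusted p was under 0.05; each panel has its own axis. Probe set 102955_at passed in every setting shown, Nfil3 as a gene was higher in every setting shown but lost its call without the filter, without the trend and with any array left out, and at a pseudocount of 16 it was represented by 102955_at. Differences of 102955_at are fitted against medium arrays at the background and give no exact size.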

How the data were processed

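RNA was measured on 4 one-colour Affymetrix arrays. The deposited values are signal intensities that the authors summarised using MAS5, as stated in the submitters' processing notes; version and settings are not given in the sources used here. Their 2% trimmed means agree at 100.06 to 100.07, so the arrays share a scaling, and 0 columns belonged to other samples. Genes came from the platform annotation: of 12488 probe sets, 10833 named 1 gene (8251 genes), 396 several, 1193 none and 66 were controls.

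Here log2(signal + 1) was fitted with limma 3.58.1 under R 4.3.3 (eBayes, trend, two-sided, Benjamini-Hochberg over all 5582 genes, threshold 0.05). The fit was also run on simulated data, with each gene's spread taken from the same fit. That run cannot check the variance trend, on which the calls depend. Arrays limit the precision by their number. Members, lists and settings were chosen with earlier results of these data known. Named genes are all member probe sets, clock list genes that passed, the non-member with the largest difference in each list without another call, Fkbp5, Tsc22d3 and Nr3c1, and the 3 genes nearest to a passing member; further genes were named after their values were seen. Alternatives were other scalings, pseudocounts, filters, probe set choices, no variance trend, a replicate block and leaving out each array. RefSeq's GRCm38.p6 promoters served for sequence.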

Additional observations from a re-analysis of the deposited data

How the results depend on the processing

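Nfil3 was higher with dexamethasone in 16 of 16 alternatives. Only the other scalings could have turned that sign, since both dexamethasone arrays lay above both medium arrays on each probe set. The rise of Nfil3 passed in 10 of the 16. It did not pass without a filter (1.25, limma adjusted p = 0.0790), without the variance trend (1.25, 0.130) or with any array left out (1.001 to 1.503). On probe set 102955_at it passed in 12 of 12 fits, which were added after the data were seen. Choosing the brightest probe set by linear signal, also added then, makes that probe set stand for the gene. The 10 passes include that choice, a pseudocount of 16 and the entry of 102955_at among probe sets, all fits of 102955_at. They also include the mean of both probe sets. With scaling to the hybridization controls Per1 was at -0.040, Clock at -0.29, Cry1 at -0.78 and Dbp at -0.76, beside a median of all genes of -0.45. Bhlhe40, under the background and so without a level, was at -2.07. Cry1 passed with the 60th percentile filter (-0.32), under which no other member was tested, and its mean over probe sets was 0.29, since 2 of the 3 averaged lie under the background. Clock was at -0.14 to 0.40 with an array left out. For the probe sets under the background, Per2 was at -0.23 and -0.068 with pseudocounts of 4 and 16, and Bhlhe40 at -0.95 and -0.34, and at -1.94 after quantile normalization.

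The count over all genes, 218, was 2513 with scaling to the hybridization controls, 116 without a filter, 19 without the trend, 353 with the replicate block and 32 to 78 with an array left out. The count over the clock lists, 4, was 19, 2, 0 and 5 in the first 4 of these settings, in that order, and 0 with any array left out. At an unadjusted p under 0.05 limma gave 7 clock list genes as reported, 10 without the trend and 7 to 8 with an array left out, which is 22.6%, 32.3% and 22.6% to 25.8% of those tested, beside 19.9%, 17.5% and 13.1% to 20.5% of all genes. Same-numbered arrays deviated together with a correlation of 0.07, so the numbers are not taken to pair them, and the replicate block changed no member's call.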
